A study of Mus musculus with 16 samples.

Results

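Sostdc1, Stc1, Scg5, Cpn1, Stra6, Cltrn, Kcnh8, Lrrtm1, Rasl11a and Kif12 are 10 mouse genes chosen because their RNA lay much higher in the caput epididymis of castrated mice than in that of sham operated mice. They were selected on the intensity in castrated against sham caput, and they are 10 of the 18194 genes measured, with 16 of the 34958 probe sets that carry exactly 1 gene symbol. RNA of caput epididymis and efferent duct from adult male 129BL/6 mice had been hybridised to 16 one-colour Affymetrix arrays, 8 from each tissue. Each tissue had 4 groups of 2 arrays. The groups were castrated mice given 0.015 mg testosterone propionate (TP), castrated mice given 0.015 mg estradiol (E2), castrated mice given vehicle (called castrated here) and sham operated mice given vehicle (called sham). Vehicle was 100 µL of sesame oil with 10% ethanol, injections followed surgery by 14 days, and tissue was taken 12 hours after the injection. The study had 1 dose and 1 time for each hormone. Nothing in the labels ties the replicates to separate animals, and p-values therefore measure only the spread between these samples, which may be technical.

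The caput is the proximal part of the epididymis, where the epithelium secretes proteins into the lumen that sperm pick up as they mature. Castration takes away testosterone and also the fluid and sperm that reach the caput from the testis. TP is an ester that releases testosterone, which acts through the androgen receptor, and E2 is the main natural estrogen, which acts through estrogen receptors. Both kinds of receptor bind DNA and change transcription, so a hormone given after castration is used to ask which castration changes it undoes.

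The 10 genes encode proteins of different kinds. Sostdc1 is a secreted protein that blocks BMP and WNT ligands, and Stc1 (stanniocalcin) is a secreted glycoprotein known in fish as a calcium-regulating hormone. Scg5 encodes 7B2, a secretory granule protein that helps the prohormone convertase PC2 fold, and Cpn1 is the catalytic subunit of carboxypeptidase N, which removes basic residues from the ends of peptides such as kinins. Stra6 is the membrane receptor through which cells take up retinol from its plasma carrier, and Cltrn (collectrin) is a membrane protein that brings amino acid transporters to the apical membrane in kidney. Kcnh8 is a voltage-gated potassium channel of the ELK family and Lrrtm1 a leucine-rich repeat protein that neurons use at synapses. Rasl11a is a Ras-like small GTPase and Kif12 a kinesin motor protein.

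In the RefSeq annotation of GRCm38.p6, the genes lie on 10 different chromosomes: Sostdc1 at chr12:36314169-36318452, Stc1 at chr14:69029289-69041401, Scg5 at chr2:113776313-113829091, Cpn1 at chr19:43956307-43986551, Stra6 at chr9:58063793-58154004, Cltrn at chrX:164090187-164118859, Kcnh8 at chr17:52602709-52979194, Lrrtm1 at chr6:77229210-77259915, Rasl11a at chr5:146845071-146847726 and Kif12 at chr4:63157948-63172145. Lrrtm1 lies inside the span of Ctnna2, Stra6 shares part of its span with Ccdc33, and Stc1 overlaps the long noncoding RNA gene Gm41192. Promoter windows from RefSeq, which run from 250 bases before to 50 bases after an annotated start, matched 8 of the 10 genes with 12 windows in all. The sequences here, 5′ to 3′ on the gene's strand, are windows of Stra6, Lrrtm1 and Rasl11a, which after TP lay below their level after E2, and of Scg5, which lay at nearly the same level after both hormones. They are from chr9:58133825-58134124 (plus strand), chr6:77242227-77242526 (plus strand), chr5:146844821-146845120 (plus strand) and chr2:113829042-113829341 (minus strand). Capitals mark AGAACA, an arm of the androgen response element.
Stra6: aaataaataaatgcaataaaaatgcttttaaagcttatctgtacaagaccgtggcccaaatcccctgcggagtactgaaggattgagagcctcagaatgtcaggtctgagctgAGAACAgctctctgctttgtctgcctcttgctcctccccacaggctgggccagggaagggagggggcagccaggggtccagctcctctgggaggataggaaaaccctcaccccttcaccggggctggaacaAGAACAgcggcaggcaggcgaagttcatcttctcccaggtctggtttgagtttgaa
Lrrtm1: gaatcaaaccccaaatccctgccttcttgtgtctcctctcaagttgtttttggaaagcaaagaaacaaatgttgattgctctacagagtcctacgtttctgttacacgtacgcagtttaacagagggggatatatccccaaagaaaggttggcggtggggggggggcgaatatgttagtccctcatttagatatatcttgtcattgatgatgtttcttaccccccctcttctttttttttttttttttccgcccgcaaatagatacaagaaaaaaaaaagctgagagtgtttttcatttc
Rasl11a: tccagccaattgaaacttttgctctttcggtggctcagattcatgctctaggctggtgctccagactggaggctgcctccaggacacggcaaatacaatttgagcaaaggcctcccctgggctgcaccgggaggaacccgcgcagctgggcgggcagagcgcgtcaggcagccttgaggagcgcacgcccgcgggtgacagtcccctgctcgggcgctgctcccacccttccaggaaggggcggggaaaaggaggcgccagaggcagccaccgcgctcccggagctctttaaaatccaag
Scg5: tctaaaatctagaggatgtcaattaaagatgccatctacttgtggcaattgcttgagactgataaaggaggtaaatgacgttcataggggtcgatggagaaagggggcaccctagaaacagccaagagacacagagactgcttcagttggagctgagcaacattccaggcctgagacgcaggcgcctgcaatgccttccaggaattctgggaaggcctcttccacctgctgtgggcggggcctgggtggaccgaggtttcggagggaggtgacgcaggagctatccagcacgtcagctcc

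The windows were searched on both strands for 5 motifs. AGAACA occurred in windows of 2 of the 8 genes, Stra6 and Cltrn, against 21.3% of the 27025 genes with a window. Stra6 has 4 windows, 2 of them without AGAACA, and the window printed is the one with the most matches, which began at positions -137 and -6 from the start site. The other 4 motifs were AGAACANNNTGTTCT (the androgen element with both arms, within which AGAACA also matches), GGTCANNNTGACC (an estrogen response element), AGGTCA (an arm of the sites of estrogen and retinoid receptors) and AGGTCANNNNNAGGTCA (a retinoid repeat, which contains AGGTCA). Each of these was in windows of 0 of the 8 genes, against 0.0111%, 0.074%, 18.1% and 0.0111% of all genes in that order. A match or its lack describes these letters in these windows only.

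Levels are given as deposited linear intensity of the brightest probe set of each gene, replicate 1 before replicate 2, and differences as log2 differences with 95% intervals from limma. Castrated over sham is the contrast that chose the genes and is described without a test. All 10 genes had both castrated arrays above both sham arrays, as had 35.1% of all genes, and the median rise of the 10 was 3.84 on the log2 scale against 0.06 over all genes. Kif12 and Sostdc1 were below background on both sham arrays, where background is the highest of 27 bacterial control probe sets on each array, so that their rises are bounds of at least 16.3-fold for Kif12 and at least 10.9-fold for Sostdc1. The other rises were 17.3-fold for Lrrtm1, 15.1-fold for Rasl11a, 14.9-fold for Scg5, 13.8-fold for Cltrn, 11.3-fold for Cpn1, 9.49-fold for Kcnh8, 6.34-fold for Stc1 and 3.95-fold for Stra6. The rule had no numeric threshold: among all genes ordered by log2 rise, Kif12 was at rank 1, Stc1 at rank 113 and Stra6 at rank 352. Just above Stra6 (log2 rise 1.982) in that order stood Pbld1 (1.983), at 11.1 and 15.3 in castrated caput against 10.5 and 1.03 in sham caput, and just below it Mob3c (1.982), at 29.1 and 26.3 in castrated caput against 8.73 and 5.63 in sham caput. The order takes deposited values as they stand. The sham values of Kif12, Sostdc1, Pbld1 and Mob3c were below background, so that the places of these genes, rank 1 included, are uncertain.

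**Figure D1:**
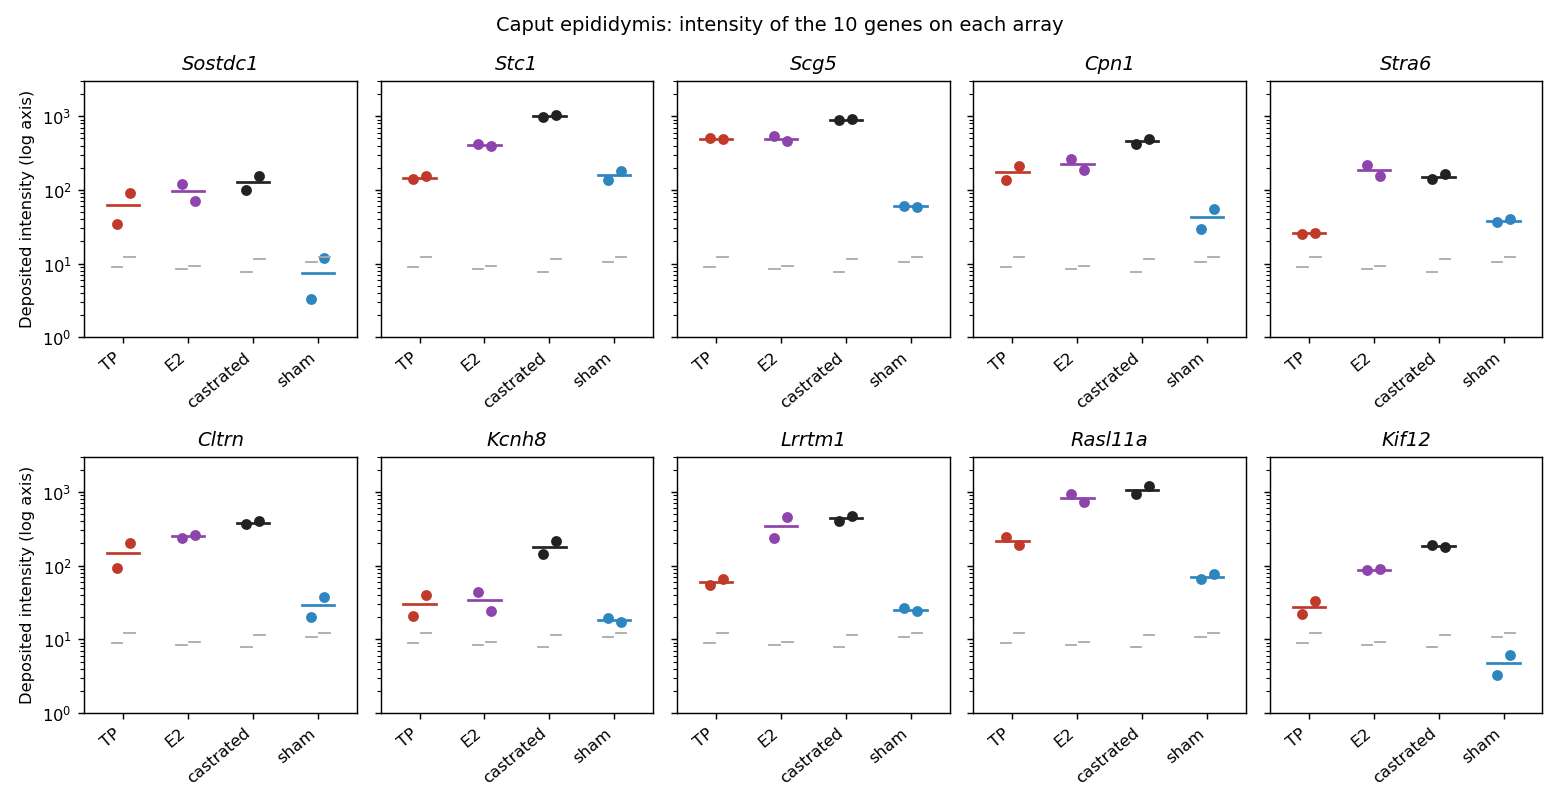
Deposited intensity (log axis) of the brightest probe set of each of the 10 genes on the 8 caput arrays, with 2 arrays per group as points, the group mean as a line and each array's background as a short grey line. Castrated arrays stand above sham arrays in all 10 panels, TP arrays lie below castrated arrays in all 10, and E2 arrays lie near castrated arrays in some panels (Stra6, Lrrtm1, Rasl11a) and near TP arrays in others (Scg5, Kcnh8).

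After TP, 5 of the 10 genes passed the test as lower than in castrated caput: Stc1, Stra6, Rasl11a, Lrrtm1 and Kif12. Across the array 118 genes, 0.649%, were lower by the same rule (limma, adjusted p under 0.05 over 18194 genes), and 0 of the 10 were higher. Both TP arrays lay below both castrated arrays for all 10 genes, against 29.4% of all genes, and the median log2 difference was -2.43 for the 10 against -0.05 for all genes. This comparison uses the castrated arrays by which the genes were chosen, and the choice of Stc1 and Stra6, the smallest rises, was made with results for TP known. The call is thin: leaving out a castrated or a TP array left 0 of the 10 past the threshold, leaving out a sham array 1 and leaving out an E2 array 3, whereas 9 passed with an intensity trend in limma's variance prior. The 3′ over 5′ ratio of Gapdh (log2), a measure of RNA and labelling quality, also differed, at -0.207 and -0.140 on TP arrays against -0.387 and -0.454 on castrated arrays, and its part in the result was not tested.

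After E2, 0 of the 10 genes passed the test against castrated caput, and 0 of 18194 genes did (0.0%, smallest adjusted p = 0.0501 in limma). At an unadjusted p under 0.05 the count was 5 of 10 (Stc1, Scg5, Kcnh8, Kif12 and Cpn1), against 14.5% of all genes, and 3 of the 10 passed with an intensity trend. Both E2 arrays lay below both castrated arrays for 7 of the 10, against 23.4% of all genes. The median log2 difference of the 10 was -0.74, against 0.01 over all genes. As with TP, the genes were chosen for high values on these castrated arrays, so these counts and the median are not independent of the choice.

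TP was then set directly against E2, a comparison that uses neither castrated vehicle nor sham arrays in its group means. The choice of Stc1 and Stra6 was nevertheless made with results for TP known, so the counts that include them are not independent of the choice. In it 4 of the 10 genes, Stra6, Stc1, Rasl11a and Lrrtm1, were lower after TP, where 182 genes or 1.0% of all genes were, and 0 were higher, where 1.12% of all genes were. Both TP arrays lay below both E2 arrays for 6 of the 10, against 27.9% of all genes. For Scg5, Kcnh8, Cpn1, Cltrn, Sostdc1 and Kif12 the difference did not pass the test. Leaving out a castrated array left 1 of the 10 past the threshold, and leaving out any other caput array left 0. The Gapdh ratio was -0.207 and -0.140 on TP arrays against -0.367 and -0.329 on E2 arrays, and its part in these differences was not tested.

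**Figure D2:**
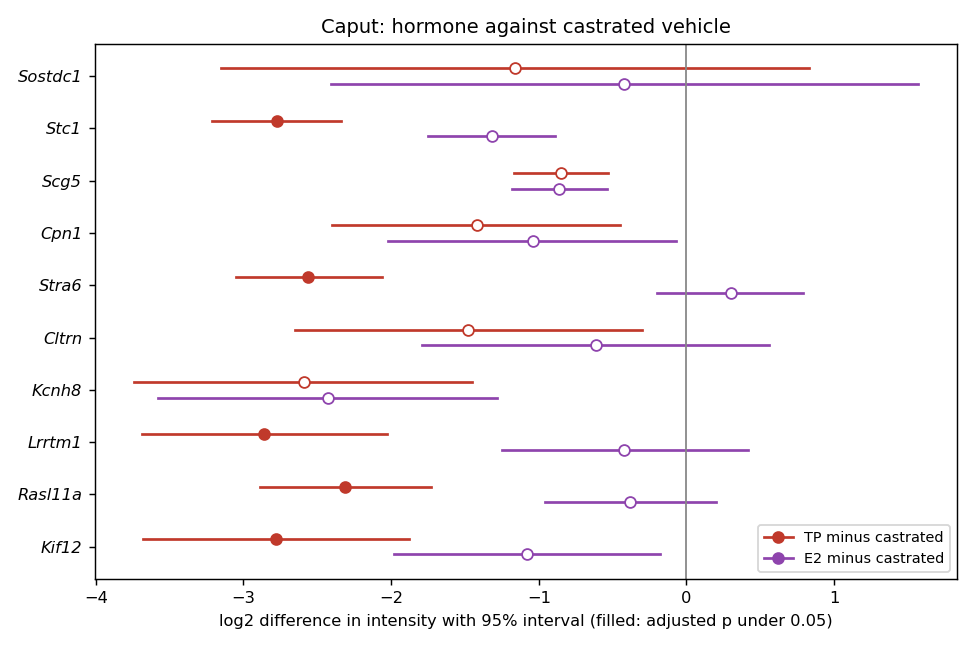
Log2 difference in caput intensity of TP and of E2 against castrated vehicle for each of the 10 genes, with 95% intervals from limma (2 arrays per group); filled points have an adjusted p under 0.05. The 5 filled points all belong to TP (Stc1, Stra6, Lrrtm1, Rasl11a, Kif12), and for Scg5 and Kcnh8 the points of both hormones nearly coincide.

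Of the secreted proteins, Stc1 had 139 and 155 in TP caput, 415 and 390 in E2 caput, 978 and 1034 in castrated caput and 138 and 183 in sham caput. The TP arrays lay in the range of the sham arrays, and the E2 arrays stood between these and the castrated arrays. Stc1 fell 6.84-fold after TP relative to castrated caput (log2 -2.77, -3.21 to -2.34, adjusted p = 0.0128) and was 2.74-fold lower after TP than after E2 (log2 -1.45, -1.89 to -1.02, adjusted p = 0.0308). Its E2 minus castrated difference of -1.32 (-1.75 to -0.89) had an adjusted p of 0.0792. The TP minus sham difference was -0.11 (-0.54 to 0.32).

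Scg5, the PC2 chaperone gene, had 501 and 495 in TP caput, 538 and 456 in E2 caput, 883 and 915 in castrated caput and 60.8 and 59.5 in sham caput. Both hormone groups lay below the castrated arrays and far above the sham arrays, and they overlapped each other. The TP minus castrated difference was -0.85 (-1.17 to -0.53, adjusted p = 0.0502), just short of the threshold, and that of E2 was -0.86 (-1.18 to -0.54, adjusted p = 0.0932). TP and E2 differed by 0.01 (-0.31 to 0.33), an interval that leaves room for a difference of up to 1.25-fold. Relative to sham caput Scg5 was 8.28-fold higher after TP (adjusted p = 0.00274) and 8.23-fold higher after E2 (adjusted p = 0.00186).

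Cpn1, the carboxypeptidase N subunit, had 137 and 210 in TP caput, 261 and 186 in E2 caput, 421 and 491 in castrated caput and 29.6 and 55.0 in sham caput. Every hormone array lay below the castrated arrays and above the sham arrays. The differences from castrated caput were -1.42 (-2.40 to -0.45, adjusted p = 0.14) for TP and -1.04 (-2.02 to -0.07, adjusted p = 0.322) for E2.

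Sostdc1, the BMP and WNT antagonist, had 34.0 and 91.4 in TP caput, 121 and 71.5 in E2 caput, 99.2 and 156 in castrated caput and 3.30 and 11.8 in sham caput. Its intervals were the widest of the 10, and the E2 arrays overlapped the castrated ones. The TP minus castrated difference was -1.16 with an interval of -3.15 to 0.83 (adjusted p = 0.49), whose lower end is a fall of 8.87-fold. E2 minus castrated was -0.42 (-2.41 to 1.57, adjusted p = 0.847). After E2 it was at least 8.12-fold higher than in sham caput (adjusted p = 0.0316), and after TP at least 4.87-fold (adjusted p = 0.0676, not past the threshold). On its dimmer probe set, 1460250_at, Sostdc1 did pass as higher after TP than in sham caput, by at least 2.0-fold (adjusted p = 0.0321 over all probe sets).

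Among the membrane proteins, the retinol receptor gene Stra6 showed the largest TP minus E2 difference of the 10 genes. Stra6 had 25.6 and 25.9 in TP caput, 221 and 156 in E2 caput, 142 and 162 in castrated caput and 36.9 and 39.8 in sham caput. The TP arrays were the lowest of the 8, under the sham arrays, while the E2 arrays overlapped the castrated ones. Stra6 fell 5.89-fold after TP relative to castrated caput (log2 -2.56, -3.05 to -2.06, adjusted p = 0.0147) and was 7.23-fold lower after TP than after E2 (log2 -2.85, -3.35 to -2.36, adjusted p = 0.0131). E2 minus castrated was 0.30 (-0.20 to 0.79, adjusted p = 0.549), and TP minus sham was -0.58 (-1.07 to -0.08, adjusted p = 0.126).

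Lrrtm1, the leucine-rich repeat protein gene, had 54.3 and 66.8 in TP caput, 237 and 451 in E2 caput, 401 and 476 in castrated caput and 26.7 and 24.0 in sham caput. The E2 arrays overlapped the castrated ones, and the TP arrays lay well below both. Lrrtm1 fell 7.25-fold after TP relative to castrated caput (log2 -2.86, -3.69 to -2.03, adjusted p = 0.0341) and was 5.43-fold lower after TP than after E2 (log2 -2.44, -3.27 to -1.61, adjusted p = 0.0384). E2 minus castrated was -0.42 (-1.25 to 0.42, adjusted p = 0.617).

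Kcnh8, the ELK channel gene, had 21.0 and 40.2 in TP caput, 44.0 and 24.0 in E2 caput, 142 and 217 in castrated caput and 19.7 and 17.3 in sham caput. The arrays of both hormones overlapped each other, lay far below the castrated arrays and stood slightly above the sham arrays. Both differences from castrated caput were large but missed the threshold, at -2.59 (-3.74 to -1.45, adjusted p = 0.0649) for TP and -2.43 (-3.58 to -1.28, adjusted p = 0.138) for E2. TP minus E2 was -0.16 (-1.31 to 0.98). Kcnh8 was the only one of the 10 that did not pass as higher than sham caput after E2 (0.82, -0.33 to 1.96, adjusted p = 0.272).

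Cltrn, the collectrin gene, had 92.0 and 205 in TP caput, 239 and 261 in E2 caput, 366 and 400 in castrated caput and 20.3 and 37.8 in sham caput. The groups followed each other without overlap, castrated highest, then E2, TP and sham. The differences from castrated caput did not pass the test, at -1.48 (-2.65 to -0.30, adjusted p = 0.182) for TP and -0.61 (-1.79 to 0.56, adjusted p = 0.603) for E2. TP minus E2 was -0.86 (-2.04 to 0.31, adjusted p = 0.419).

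Inside the cell, the small GTPase gene Rasl11a had 245 and 189 in TP caput, 932 and 726 in E2 caput, 944 and 1207 in castrated caput and 65.2 and 76.5 in sham caput. The higher E2 array was just under the lower castrated array, and the TP arrays lay between the E2 and the sham arrays. Rasl11a fell 4.95-fold after TP relative to castrated caput (log2 -2.31, -2.89 to -1.73, adjusted p = 0.0249) and was 3.81-fold lower after TP than after E2 (log2 -1.93, -2.51 to -1.35, adjusted p = 0.0309). E2 minus castrated was -0.38 (-0.96 to 0.20, adjusted p = 0.517). Relative to sham caput it was still 3.05-fold higher after TP (adjusted p = 0.0243).

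Kif12, the kinesin gene, had 22.1 and 33.4 in TP caput, 87.7 and 89.1 in E2 caput, 193 and 181 in castrated caput and 3.26 and 6.21 in sham caput. The groups did not overlap, and E2 lay between TP and castrated. Kif12 fell 6.87-fold after TP relative to castrated caput (log2 -2.78, -3.68 to -1.88, adjusted p = 0.0414). E2 minus castrated was -1.08 (-1.98 to -0.18, adjusted p = 0.284), and TP minus E2 was -1.70 (-2.60 to -0.80, adjusted p = 0.0937). Relative to sham caput Kif12 was at least 2.37-fold higher after TP (adjusted p = 0.0229) and at least 7.72-fold higher after E2 (adjusted p = 0.00497). These adjusted p values come from the deposited sham values, which were below background, and not from the bounds. Over the 17 alternative settings the TP minus sham difference ran from 0.76 to 3.06. Its brightest probe set is of a kind that can match transcripts of more than 1 gene.

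As a share of the castrated mean, TP left 13.8% of the intensity of Lrrtm1, 14.6% of Stc1, 14.9% of Kif12, 16.9% of Stra6, 17.1% of Kcnh8 and 20.2% of Rasl11a, but 38.0% of Cpn1, 38.8% of Cltrn, 49.1% of Sostdc1 and 55.4% of Scg5. After E2 the shares were 19.0% for Kcnh8, 40% for Stc1, 47.3% for Kif12, 49.1% for Cpn1, 55.3% for Scg5, 65.4% for Cltrn, 75.3% for Sostdc1, 77.1% for Rasl11a, 78.5% for Lrrtm1 and 124.3% for Stra6. Both hormones thus left Kcnh8 and Scg5 at nearly the same share, and they left Lrrtm1, Stra6 and Rasl11a at very different ones. These shares are descriptions, and each rests on 2 arrays per group.

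Distance from the sham level was tested with the sham arrays that had also chosen the genes. On sham arrays the Gapdh ratio was -0.509 and -0.481, against -0.207 and -0.140 on TP arrays and -0.367 and -0.329 on E2 arrays. Its part in these differences was not tested. After TP 5 of the 10 genes were still higher than in sham caput (4.65% of all genes were): Scg5, Kif12, Rasl11a, Cpn1 (4.19-fold, adjusted p = 0.0396) and Cltrn (4.95-fold, adjusted p = 0.0451). After E2 9 of the 10 were higher (9.99% of all genes). Of the 5 genes that fell after TP, Kif12 and Rasl11a thus passed as above sham, Kif12 with sham values below background. Stc1, Stra6 and Lrrtm1 (1.25, 0.42 to 2.08, adjusted p = 0.0752) did not pass. For Lrrtm1 both TP arrays nevertheless lay above both sham arrays. Its dimmer probe set 1452624_at passed as higher after TP than in sham caput, by at least 3.22-fold (adjusted p = 0.0238 over all probe sets). Its probe set 1437746_at did not (log2 -0.07). The TP count was 1 without a TP or a sham array and 2 without a castrated array, and the E2 count was 5 and 6 without the first and second E2 array and 6 without the first sham array.

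Of the 10 genes 5 had further probe sets, 6 in all, which were dimmer. For Lrrtm1 the probe set 1452624_at had 45.2 and 30.2 in TP caput, 218 and 271 in E2 caput, 203 and 217 in castrated caput and 8.90 and 9.60 in sham caput. It fell after TP relative to castrated caput (log2 -2.51, adjusted p = 0.0355 over all probe sets) and was lower after TP than after E2 (log2 -2.72, adjusted p = 0.0296), as with the brighter probe set. The second Kif12 probe set, 1424910_at, was at 16.3 and 18.3 in TP caput, 23.8 and 25.5 in E2 caput and 44.6 and 56.8 in castrated caput, and its difference of -1.54 between TP and castrated had an adjusted p of 0.0618. The second Cpn1 probe set, 1440576_at, was below background on both TP arrays and at 47.0 and 61.0 on the castrated arrays, at least 5.11-fold lower after TP (adjusted p = 0.136). The second Sostdc1 probe set, 1460250_at, had a TP minus castrated difference of -1.40 (adjusted p = 0.322).

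The second Stc1 probe set, 1421984_at, was at 4.58 and 1.97 in castrated caput, below background on both arrays, and at 14.8 and 2.98 in sham caput, and it was above background on at most 1 array of each other caput group. No difference can be read from it, so that the Stc1 values rest on 1 probe set. The third Lrrtm1 probe set, 1437746_at, was dim as well, at 5.59 and 21.3 in TP caput against 18.2 and 45.0 in castrated caput, and passed no test among the hormone comparisons in caput.

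The hormones could be checked on Fkbp5, a gene that the androgen receptor and other steroid receptors switch on. Fkbp5 had 1819 and 1717 in TP caput, 503 and 473 in E2 caput, 602 and 557 in castrated caput and 1540 and 1715 in sham caput. It rose after TP relative to castrated caput (log2 1.61, 1.30 to 1.92, adjusted p = 0.0147) and its TP minus sham difference was 0.12 (-0.19 to 0.43). Greb1, an estrogen receptor target, had 153 and 242 in TP caput, 371 and 448 in E2 caput, 111 and 147 in castrated caput and 323 and 448 in sham caput. Its E2 minus castrated difference of 1.67 (0.89 to 2.45) did not pass the test (adjusted p = 0.135 in limma). Pgr, a further check gene, had 72.9 and 105 in E2 caput against 35.1 and 52.2 in castrated caput. That difference of 1.03 (0.34 to 1.73) did not pass either (adjusted p = 0.221 in limma).

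Caput RNA is a mixture of cell types, in which fewer cells of a type and less RNA per cell cannot be told apart. Summed intensity of 9 of 10 caput principal cell markers, such as Adam7, Spink10 and Rnase10, was 13528 and 18730 in TP caput, 7652 and 5044 in E2 caput, 6201 and 6062 in castrated caput and 67185 and 67460 in sham caput. In castrated caput 8 of these 9 were lower than in sham caput (6.12% of all genes were) and 0 higher. After TP 4 of the 9 were higher than in castrated caput (1.02% of all genes were) and 5 did not pass. Clear and narrow cell markers (7 of 8 measured) summed to 1856 and 1852 in TP caput, 1661 and 1579 in E2 caput, 1684 and 1532 in castrated caput and 2644 and 2841 in sham caput. Rhcg made up most of the sham sums, at 1642 and 1846 in sham caput. It had 62.2 and 38.4 in castrated caput, 59.9 and 39.0 in E2 caput and 503 and 592 in TP caput. In castrated caput 4 of these 7 were higher than in sham caput (Atp6v1b1, Atp6v0a4, Foxi1 and Kit; 7.9% of all genes were) and 2 lower (Car2 and Rhcg), with a median log2 difference of 0.93. After TP the median of this list against castrated caput was -1.01, with 0 of the 7 passing as lower and 1, Rhcg, as higher. Of the B and plasma cell markers (6 of 7 measured) 2, Igha and Jchain, were higher in castrated than in sham caput and 4 did not pass, and the sums were 487 and 820 in TP caput, 764 and 821 in E2 caput, 547 and 1023 in castrated caput and 112 and 130 in sham caput, with TP and castrated arrays overlapping. Igha made up most of the castrated sums, at 396 and 710 in castrated caput against 32.8 and 33.7 in sham caput. Ciliated cell markers (7 of 7) were at 629 and 860 in TP caput, 978 and 951 in E2 caput, 760 and 953 in castrated caput and 400 and 460 in sham caput. Macrophage and dendritic cell markers (10 of 10) were at 2575 and 3167 in TP caput, 3433 and 3711 in E2 caput, 2896 and 3110 in castrated caput and 2484 and 2463 in sham caput. The castrated arrays of both lists lay above the sham arrays, with 3 of 7 ciliated and 2 of 10 macrophage and dendritic cell markers passing as higher. Germ cell markers (6 of 6), at 85.3 and 67.5 in TP caput, 276 and 85.4 in E2 caput, 91.9 and 88.1 in castrated caput and 5288 and 1184 in sham caput, were high in sham caput alone. Adipocyte markers (5 of 7 measured) varied within groups, at 443 and 404 in TP caput, 1503 and 2992 in E2 caput, 312 and 2142 in castrated caput and 841 and 549 in sham caput. Of 6 fibroblast markers 1 was higher and 2, Col1a1 and Col1a2, were lower in castrated than in sham caput. After TP these 2 were higher than in castrated caput and 4 did not pass. Of 6 smooth muscle markers 1, Actg2, was lower in castrated than in sham caput, and 0 passed after TP. The part of these cell types in the values of the 10 genes was not tested.

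Genes of the same families were read from lists of pathway members. Against castrated caput, TP changed few of them: Rdh10, the enzyme that turns retinol into retinal, fell (165 and 185 in TP caput, 596 and 451 in castrated caput, log2 -1.57, adjusted p = 0.0414), 1 of 17 measured retinoid genes. Rasd1, a small GTPase gene that glucocorticoids induce, rose (1140 and 1417 in TP caput, 367 and 421 in castrated caput, log2 1.69, adjusted p = 0.0349), 1 of 12 Ras-like genes. In the other 8 lists 0 genes passed in either direction, and across all genes 1.02% were higher and 0.649% lower after TP. The median TP minus castrated difference of the lists ran between -0.69 for the leucine-rich repeat proteins and 0.38 for the EAG, ERG and ELK channels, against -0.05 for all genes. After E2 0 genes of any list passed, as for the array as a whole.

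Castration itself moved more of these relatives, against a background of 7.9% of genes higher and 6.12% lower in castrated than in sham caput. Of 28 BMP and WNT genes 8 were higher and 2 lower, among them Fst (follistatin), at 151 and 154 in castrated caput against 40.5 and 33.2 in sham caput, and Dkk3, at 324 and 296 in castrated caput against 98.8 and 97.4 in sham caput. Of 17 retinoid genes 4 were higher, led by Rdh10 (596 and 451 in castrated caput against 119 and 150 in sham caput), and 1 was lower, Aldh1a1, a retinaldehyde dehydrogenase gene (2137 and 2349 in castrated caput against 5450 and 5391 in sham caput). Of 10 measured relatives and partners of Cltrn 3 were lower and 0 higher, with the glutamate transporter gene Slc1a1 at 500 and 447 in castrated caput against 2426 and 2139 in sham caput and Ace at 186 and 132 in castrated caput against 843 and 1026 in sham caput. The list medians (castrated minus sham) were 0.47, 0.44 and -0.88 for these lists, against 0.06 for all genes.

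In the remaining lists the genes that passed between castrated and sham caput were 3 higher of 20 kinesins (Kif3a and Kif13b among them), 3 higher and 2 lower of 12 Ras-like genes (Rem2 higher and Rasl10a lower), 2 higher of 11 genes of the stanniocalcin and IGF binding protein axis (Stc2 and Igfbp3), 1 higher of 10 leucine-rich repeat genes (Flrt3), 1 higher of 9 carboxypeptidases (Cpxm1), and 1 higher (Kcnh1) and 1 lower (Kcnh5) of 5 potassium channels. Of 11 granin and prohormone processing genes 1 was lower (Scg2). Scg2 and Kcnh5 were below background in both groups, so that no fold is given.

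Between TP and E2 caput some relatives passed in the same direction as Stra6, Stc1 and Rasl11a; they are named here after their values were seen. Lrat, which stores retinol as esters, had 41.8 and 50.6 in TP caput against 184 and 243 in E2 caput (log2 -2.20, adjusted p = 0.0177), and Rdh10 had 165 and 185 in TP caput against 421 and 467 in E2 caput (log2 -1.34, adjusted p = 0.0465). Stc2, the other stanniocalcin gene, had 159 and 119 in TP caput against 471 and 436 in E2 caput (log2 -1.72, adjusted p = 0.0304). The small GTPase genes Rem2 (log2 -2.41, adjusted p = 0.0171) and Rerg (log2 -1.38, adjusted p = 0.0453) and the kinesin gene Kif5c (log2 -1.22, adjusted p = 0.0377) were lower after TP as well. That makes 2 of 17 retinoid genes, 1 of 11 of the stanniocalcin axis, 2 of 12 Ras-like genes and 1 of 20 kinesins, against 1.0% of all genes. In the other 6 lists 0 of 28 BMP and WNT genes, 0 of 9 carboxypeptidases, 0 of 10 relatives and partners of Cltrn, 0 of 11 granin and processing genes, 0 of 10 leucine-rich repeat genes and 0 of 5 potassium channels passed.

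The choice of genes with castrated arrays far above sham arrays itself makes their profiles over the 8 caput arrays correlate, and each gene is part of the mean it is set against, so the correlations here are descriptions. Pearson correlation of log2 intensity with the mean standardised profile of the 10 ran from 0.793 for Stra6 to 0.993 for Kif12, and between pairs of the genes from 0.507 (Scg5 with Stra6) to 0.982 (Cltrn with Kif12). Among 15925 other genes above background on at least 2 caput arrays, the 5 nearest to the mean profile were Lrrc26 (0.995), Dclk3 (0.992), Fcho2 (0.99), Ahr (0.99) and Arl2bp (0.989). Ahr, the receptor for dioxin and related compounds, had 347 and 368 in TP caput, 602 and 647 in E2 caput, 755 and 809 in castrated caput and 189 and 198 in sham caput. Lrrc26, a leucine-rich repeat protein that is an auxiliary subunit of BK potassium channels, had 15 and 20.7 in TP caput, 41.5 and 36.9 in E2 caput, 65.6 and 60.6 in castrated caput and 6.51 and 7.09 in sham caput. Both sham values of Lrrc26 were below background, and its correlation uses them as they stand. These correlations describe 8 arrays in 4 groups, and the arrays share the group differences.

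**Figure D3:**
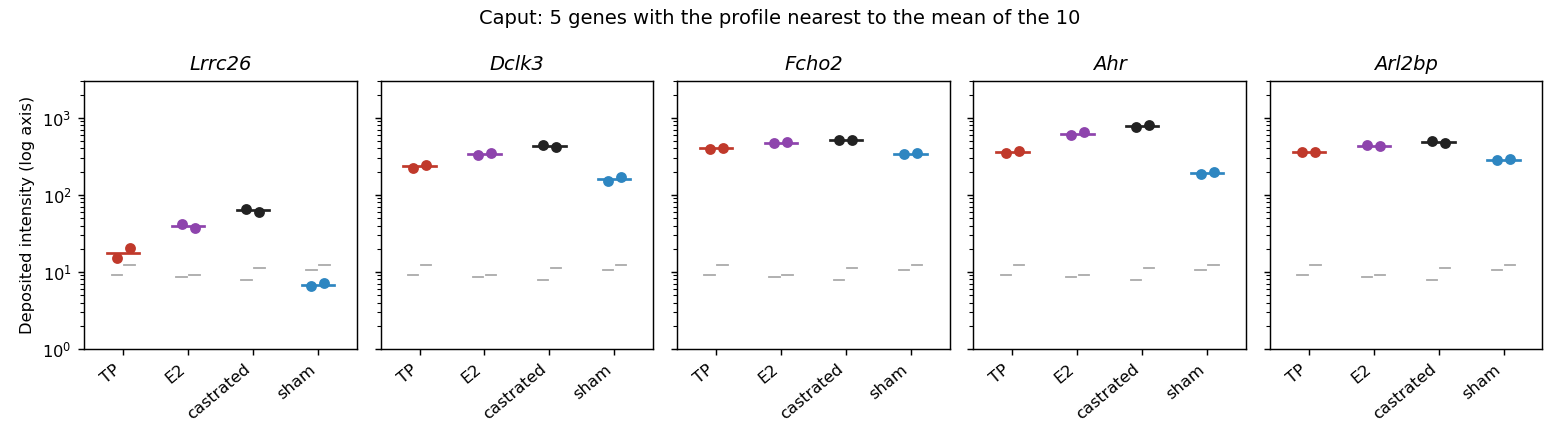
Deposited intensity (log axis) on the 8 caput arrays of the 5 genes whose profile was nearest to the mean of the 10, with arrays as points, group means as lines and array background as short grey lines. In each panel the order is castrated, E2, TP and sham from high to low, over a span that is narrow for Fcho2 (340 to 516) and wide for Lrrc26 (6.51 to 65.6). The sham points of Lrrc26 lie below background.

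The efferent ducts, which lead from the testis to the caput and take up most of the testicular fluid, were not used in choosing the genes. Their arrays fell into 2 sets by signal quality: the 3′ over 5′ ratio of actin (log2) was 0.913 to 1.93 on the TP and E2 arrays and 3.11 to 3.87 on the castrated and sham arrays, and background was 2.33 to 3.97 on the TP and E2 arrays and 8.09 to 14.3 on the castrated and sham arrays. Comparisons of a hormone with castrated vehicle cross these sets in the efferent duct, where quality and hormone cannot be told apart. In the caput background was 7.82 to 12.3 on all 8 arrays. Tissue and labelling kit also changed together.

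In castrated efferent duct 0 of the 10 genes passed the test against sham efferent duct, where 21 genes or 0.115% of all genes were higher. At an unadjusted p under 0.05 the count was 4 of 10 (Scg5, Kif12, Kcnh8 and Lrrtm1), against 15.8% of all genes. Both castrated arrays lay above both sham arrays for 7 of the 10, against 24.5% of all genes, and the median log2 difference was 1.48 for the 10 against 0.02 for all genes. Rasl11a, 1 of the 7, was at 11.9 and 21.1 in castrated efferent duct and 1.37 and 9.78 in sham efferent duct. Stra6 was at 17.0 and 8.77 in castrated efferent duct and 1.12 and 17.8 in sham efferent duct. Each was above background on 1 array of each group. With a floor of 16 the Stra6 difference of 1.45 became -0.03, so the median rests in part on values near background. Scg5 had 353 and 283 in castrated efferent duct against 105 and 77.5 in sham efferent duct, a difference of 1.81 (1.06 to 2.56, adjusted p = 0.0914). Kif12 had 69.2 and 117 in castrated efferent duct against 42.4 and 23.4 in sham efferent duct, a difference of 1.52 (0.57 to 2.47, adjusted p = 0.165). Kcnh8 had 73.5 and 85.6 in castrated efferent duct against 36.6 and 13.6 in sham efferent duct, a difference of 1.83 (0.62 to 3.04, adjusted p = 0.18).

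These 3 genes and Lrrtm1, and also Stc1, Cltrn and Rasl11a, had both castrated arrays above both sham arrays in both tissues. The tissue difference of this contrast was not tested, since caput values chose the genes. Lrrtm1 had 81.7 and 53.6 in castrated efferent duct against 21.4 and 14.3 in sham efferent duct (1.92, 0.35 to 3.49, adjusted p = 0.244). Cltrn was bright in both groups, at 508 and 553 in castrated efferent duct and 433 and 403 in sham efferent duct (0.34, -0.40 to 1.08, adjusted p = 0.598). Sostdc1, at 36.4 and 19.1 in castrated efferent duct and 27.8 and 31.1 in sham efferent duct, was above background there (-0.16, -1.03 to 0.71, adjusted p = 0.853). Caput principal cell markers, summed over 9 genes, were at 183 and 59.3 in castrated efferent duct and 5541 and 9726 in sham efferent duct, and B and plasma cell markers at 1201 and 670 in castrated efferent duct and 257 and 573 in sham efferent duct, and their part in these values was not tested.

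**Figure D4:**
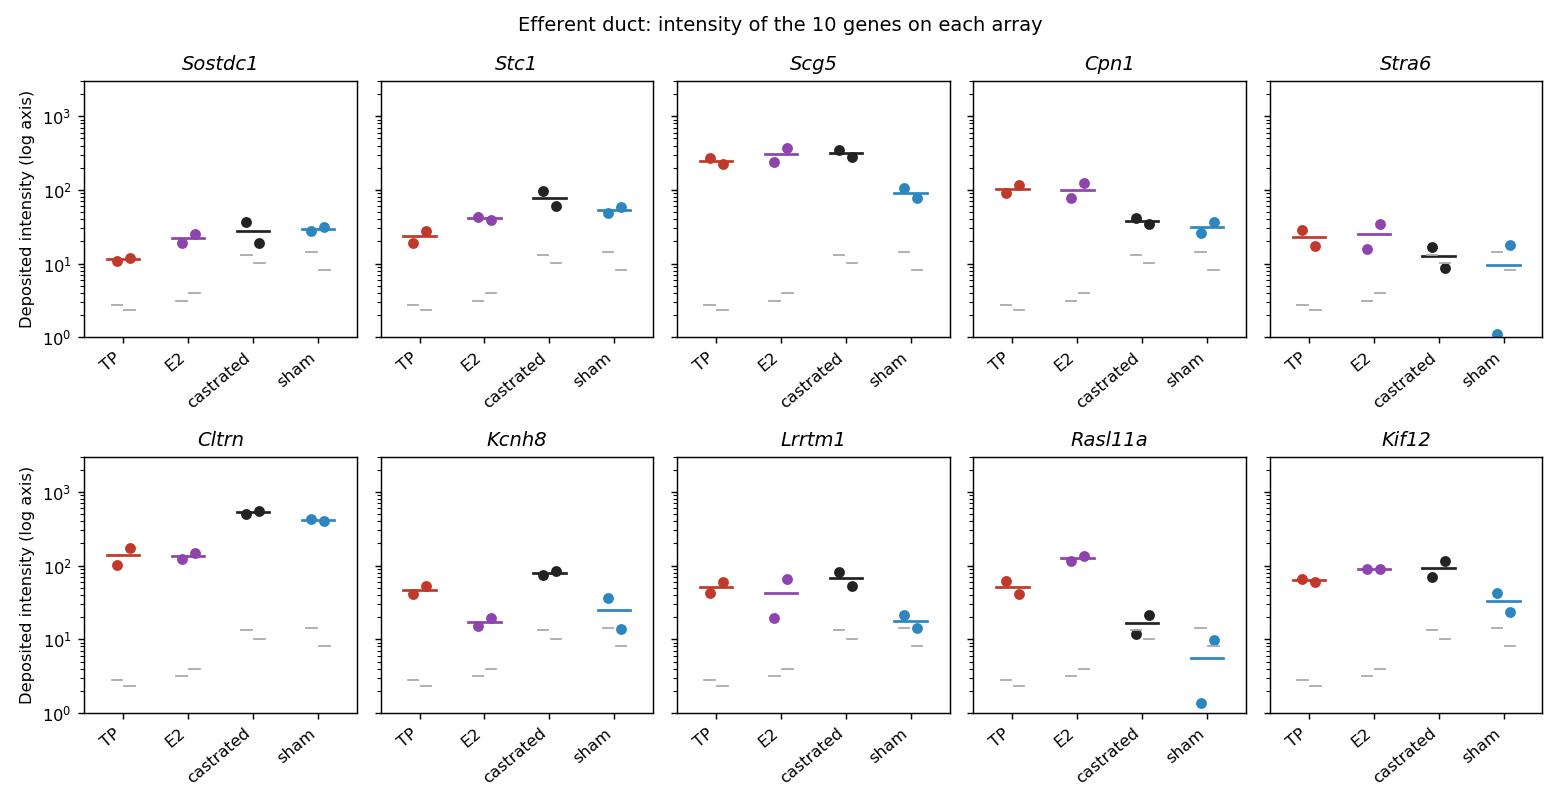
Deposited intensity (log axis) of the 10 genes on the 8 efferent duct arrays, drawn as for the caput, with the short grey lines showing that array background was lower on TP and E2 arrays than on castrated and sham arrays. Scg5, Kcnh8, Lrrtm1, Kif12, Stc1, Cltrn and Rasl11a have castrated arrays above sham arrays, and Cltrn is bright in both of these groups. Rasl11a is above background on 1 castrated and 1 sham array.

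Between TP and E2, efferent duct arrays of like quality could be compared, and 0 of the 10 genes and 0.0% of all genes passed the test. At an unadjusted p under 0.05 there were 3 of the 10, against 8.06% of all genes: Sostdc1, at 10.9 and 12.1 in TP efferent duct against 19.0 and 25.1 in E2 efferent duct (-0.93, -1.80 to -0.06), Stc1, at 19.2 and 27.6 in TP efferent duct against 43.3 and 39.0 in E2 efferent duct (-0.84, -1.62 to -0.05), and Kcnh8, at 40.9 and 52.1 in TP efferent duct against 15.4 and 19.3 in E2 efferent duct (1.42, 0.21 to 2.62). Their adjusted p values were 0.595, 0.599 and 0.543 in limma. Stra6 was dim in the efferent duct, at 28.2 and 17.5 after TP and 15.6 and 34.6 after E2, with an interval from -3.32 to 3.20.

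Whether the TP minus E2 difference itself differed between the tissues was tested in a model over all 16 arrays. It did so for 0 of the 10 genes, where 9 genes or 0.0495% of all genes passed. The largest tissue difference among the 10 with an unadjusted p under 0.05 was that of Lrrtm1, 2.93 higher in efferent duct than in caput (1.24 to 4.61, adjusted p = 0.25), followed by Kcnh8 at 1.58 (0.02 to 3.14, adjusted p = 0.534). In efferent duct the TP minus E2 difference of Lrrtm1 was 0.49 on the brightest probe set. On the dimmer ones it had the other sign, at -0.45 for 1452624_at and -1.56 for 1437746_at, the latter as in caput (-1.56). For Stra6 it was 2.79, with an interval of -0.40 to 5.98 (adjusted p = 0.596).

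**Figure D5:**
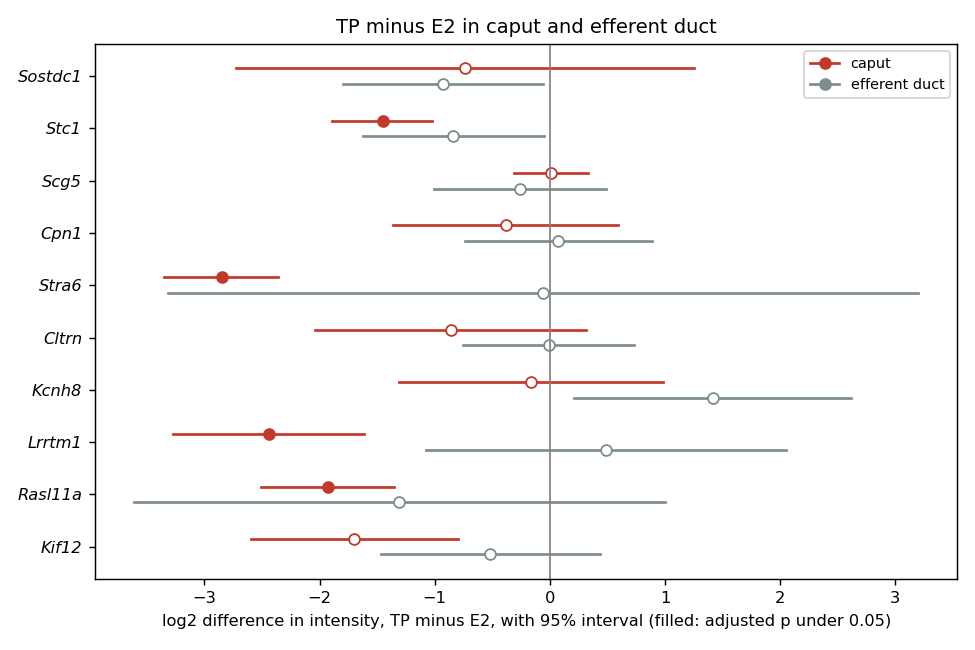
Log2 difference TP minus E2 of the 10 genes in caput and in efferent duct, with 95% intervals from limma (2 arrays per group); filled points have an adjusted p under 0.05. The filled points are Stc1, Stra6, Lrrtm1 and Rasl11a in caput; the efferent duct intervals of Stra6 and Rasl11a are wide, from -3.32 to 3.20 and from -3.61 to 1.00.

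Against castrated efferent duct, across the split in quality, 4 of the 10 genes passed after TP (35.5% of all genes did) and 3 after E2 (30.7%). Cltrn was lower after both, at 102 and 176 in TP efferent duct and 124 and 149 in E2 efferent duct against 508 and 553 in castrated efferent duct (log2 -1.98 and -1.97). Cpn1 was higher after both, at 90.8 and 118 in TP efferent duct and 77.6 and 125 in E2 efferent duct against 41.0 and 34.8 in castrated efferent duct (log2 1.45 and 1.38). The second Cpn1 probe set, 1440576_at, did not follow it there, at 3.25 and 13.9 in TP efferent duct and 15.1 and 21.3 in E2 efferent duct against 28.4 and 19.8 in castrated efferent duct (log2 -1.82, adjusted p = 0.134 for TP and log2 -0.40, adjusted p = 0.748 for E2). Stc1 (log2 -1.73) and Sostdc1 (log2 -1.20) were lower after TP, and Kcnh8 (log2 -2.20) was lower after E2. The TP count was 1 without the first TP array and 2 without the second TP or the first castrated array. The E2 count was 0 without the first E2 array and 1 without the second E2 array or either castrated array. In efferent duct both arrays of a hormone lay above both castrated arrays, and in caput below them, for 3 of the 10 genes with TP (12.8% of all genes) and for 2 of the 10 with E2 (8.94% of all genes). These shares are not a like base, since all 10 lay below castrated caput after TP and 7 after E2. Of all 5353 genes lower in caput after TP by this rule, 2325 lay higher in efferent duct. After E2 it was 1627 of 4256.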

How the data were processed

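Total RNA had been extracted with TRIzol and labelled, per the labels' protocols: 10 µg of caput RNA with a One-Cycle kit and 50 ng of efferent duct RNA with an Ovation kit. The deposited intensity values were linear. Per the submitters' processing notes the authors used RMA (version not given), but the values lack the usual form of RMA output, since they are not log2 values and every array has a mean of 125.0 after trimming 2% at each end. Log2 was taken here.

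Of 45101 probe sets 34958 had 1 gene symbol, and for the 9012 genes with several the one brightest on average over the 16 arrays stood for the gene, giving 18194 genes. Per array, 62.1% to 87.6% of probe sets exceeded background; 2 arrays per group limit the precision, with a median 95% interval of ± 0.60 (caput) and ± 0.81 (efferent duct) log2. limma 3.58.1 in R 4.3.3 fitted 1 model per tissue (8 arrays, 4 groups), with Benjamini-Hochberg adjustment over all genes and a threshold of 0.05; the code was tested on simulated data. "At least" folds use, per array, the higher of background and the dim value. Adjusted p values printed beside them come from the deposited values, without this bound. Python 3.11.15 with pandas 2.3.3 made the tables and matplotlib 3.10.9 the figures.

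The 10 genes and all lists were chosen with earlier results of these data known, so no comparison with TP is wholly independent of the choice. All 10 genes were named with all their probe sets. From each list up to 2 other genes past the threshold were named per comparison by smallest p, besides the 5 genes of nearest profile and both neighbours of the smallest rise. Alternatives were a filter on the dimmest 40% of genes, quantile normalization, the mean of a gene's probe sets, every probe set on its own, an intensity trend, 1 fit of all 16 arrays, only the 4 arrays compared, the replicate number as a block, a floor of 16, and each array left out.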

Additional observations from a re-analysis of the deposited data

Results flagged for a closer look

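For 3 of the 10 genes, both arrays of a hormone lay below the castrated arrays in caput and above them in efferent duct, as did those of 12.8% of all genes with TP and of 8.94% with E2. These shares are not a like base, since the 10 genes were chosen for high castrated caput values. Of all 5353 genes lower in caput after TP by this rule, 2325 lay higher in efferent duct, and 1627 of 4256 did after E2. Rasl11a did so after both hormones: the TP minus castrated difference was 1.68 in efferent duct and -2.31 in caput, a gap of 3.98 log2 units, and the E2 minus castrated difference was 2.98 in efferent duct and -0.38 in caput, a gap of 3.36. Cpn1 also did so after both, with 1.45 in efferent duct and -1.42 in caput after TP (gap 2.88) and 1.38 in efferent duct and -1.04 in caput after E2 (gap 2.42), but the differences of its second probe set were below 0 in both tissues. They were -1.82 in efferent duct and at least 5.11-fold in caput after TP, where it was below background, and -0.40 in efferent duct and -0.82 in caput after E2, and 0 of these 4 passed the test. Stra6 did so after TP alone, with 0.87 in efferent duct and -2.56 in caput (gap 3.42). These gaps were not tested. The efferent duct comparisons cross the split in array quality, and there Rasl11a was above background on 1 of the 2 castrated arrays, as was Stra6.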

How the results depend on the processing

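Of the 10 genes, 5 passed as lower after TP than in castrated caput. The count was 9 without the dimmest 40% of genes and with an intensity trend, 3 with the mean of all probe sets, 0 in a fit of only the 4 arrays compared, and 0 to 3 when any 1 array was left out. For E2 against castrated caput it was 0, and 3 without the dimmest genes and with the trend, 2 with a floor of 16, and 0 when any 1 array was left out. For TP against E2 it was 4, and 0 with only the 4 arrays compared, 2 in 1 fit of all 16 arrays, and 0 to 1 with an array left out. For TP against sham it was 5, and 3 with quantile normalization, 0 with only 4 arrays, and 1 to 4 with an array left out. For E2 against sham it was 9, and 0 with only 4 arrays and 5 to 9 with an array left out. For castrated against sham efferent duct it was 0, and 2 without the dimmest genes, 1 with the trend and 1 in the fit of 16 arrays. For TP against castrated efferent duct it was 4, and 2 with quantile normalization, 2 with the mean of probe sets, 0 with only 4 arrays, and 1 to 4 with an array left out. For E2 against castrated efferent duct it was 3, and 5 in the fit of 16 arrays and 0 to 4 with an array left out. Fits with fewer arrays have fewer degrees of freedom, and for the other settings the cause was not tested. For TP against E2 in efferent duct and for the tissue difference of TP minus E2 it was 0 in every alternative run.

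Replicate numbers did not pair the samples: same-numbered arrays of different groups of a tissue had deviations correlated between -0.048 and 0.065. In a fit with a replicate block, 0 of the 10 genes passed for TP against castrated caput, 0 for TP against E2 and 2 for TP against sham, and 9 for E2 against sham.

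Single-gene values were followed for the caput comparisons with TP or E2 and for castrated against sham efferent duct. They were not followed for the other efferent duct comparisons or for the tissue difference. Among those followed, signs changed only for differences that had not passed. Lrrtm1 for E2 minus castrated was 0.05 without the first E2 array (-0.88 to 0.05 over arrays left out). Scg5 for TP minus E2 was -0.01 with quantile normalization, -0.0014 without the first TP array and -0.11 without the second E2 array (-0.11 to 0.13 over arrays left out), and Kcnh8 was 0.31 without the first TP array and 0.27 without the first E2 array (-0.63 to 0.31). Stc1 for TP minus sham was 0.16 with the mean of probe sets and 0.09 without the second sham array (-0.31 to 0.09). In efferent duct, castrated minus sham was 0.77 with the mean of probe sets and 0.31 without the second castrated array (-0.62 to 0.31) for Sostdc1, and -0.03 with the floor and -0.54 without the first sham array (-0.54 to 3.44) for Stra6. Of the other single-gene values, 817 kept their direction and side of the threshold, 153 no longer passed and 35 newly passed.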
